A study of Mus musculus with 3 samples.

Results

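The TNF superfamily of ligands and receptors was described across 3 dendritic cell (DC) subsets of the mouse spleen: plasmacytoid DC (pDC), CD8+ conventional DC (cDC) and CD11b+ cDC. Genes were selected by symbol, as the probe sets whose platform annotation lists 1 gene with a symbol that starts with Tnfsf or Tnfrsf, or that is Tnf, Lta, Ltb, Ltbr, Cd27, Cd70, Cd40, Cd40lg, Fas, Fasl, Eda2r or Ngfr. This gave 63 of 45101 probe sets and 39 of 18194 genes, namely 13 ligand genes, 25 receptor genes and Tnfsf13os, an antisense RNA gene at the Tnfsf13 locus that codes for no ligand. All 3 subsets came from spleens of healthy, naïve female C57bl/6 mice aged 6 to 8 weeks, with no treatment or engineered allele stated. T and B cells were first depleted with magnetic beads, the subsets were sorted by flow cytometry, and RNA of 5 to 8 mice was pooled per subset. The 20 ng of RNA was amplified over 2 rounds and hybridised to 1 Affymetrix array per subset. With 1 array per subset the differences have no replicate check, so they are described by their size and no test was run. Mice, sort, amplification and hybridisation cannot be told apart from the subset.

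TNF superfamily ligands are mostly trimeric membrane proteins, some of which are also shed, and each binds a small set of receptors with cysteine-rich outer domains. Receptors with a death domain can start apoptosis, those without one recruit TRAF adaptors and switch on NF-kappaB, and decoy receptors bind ligand without signalling. In DC the family is known for CD40, through which helper T cells license DC, for the ligands that costimulate T cells, and for the lymphotoxin beta receptor, which maintains CD11b+ DC of the mouse spleen.

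The deposited value of a probe set is 1 intensity per array, called its signal here. A background level of 111 was taken from probe sets of smell, taste and pheromone receptor genes, which spleen cells should not express. Signals under it were set to it before any difference was taken. A gene was represented by its brightest probe set, and it was called higher or lower where 2 arrays differed by at least 2-fold and the brighter one exceeded that level. Where the dimmer array was at background, the fold is a lower bound, written as "at least". Signals of different genes come from different probes and are not compared with each other.

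The arrays bore the marks of their labels. All 5 pDC markers were above background on the pDC array, with Siglech at 106310 and at background in both cDC subsets. Zbtb46, a transcription factor of conventional DC, gave 215 in pDC, 31850.3 in CD8+ cDC and 19657 in CD11b+ cDC. Xcr1 was above background only in CD8+ cDC (10168), and the other 4 matched markers of CD8+ cDC were also brightest there. Itgam, encoding CD11b, was above background only in CD11b+ cDC (2786.5), where Sirpa, Esam and S100a4 were brightest too. Of this list, Cd4 was brighter in pDC (37302) than in CD11b+ cDC (14501), and Sirpa gave 36974 in pDC against 78989 in CD11b+ cDC. Signals at the 3' end of Gapdh exceeded those at its 5' end 16.2-fold on the pDC array, 17.6-fold on the CD8+ cDC array and 9.68-fold on the CD11b+ cDC array. For Actb the ratios were 5.71, 4.08 and 2.91 in the same order, highest on the pDC array. The spike-in controls differed between the arrays by -0.64 (mean log2) for pDC minus CD8+ cDC, 0.36 for pDC minus CD11b+ cDC and 0.99 for CD8+ minus CD11b+ cDC. When the arrays were scaled on these controls, the median over all genes became 0.65, -0.30 and -0.95 in these pairs, against 0.00, 0.01 and 0.01 as deposited. Differences are therefore relative to the bulk of genes.

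Above background on at least 1 array were 21 of the 39 genes, 7 of 13 ligand and 14 of 25 receptor genes (60.5% of all genes). On all 3 arrays it was 15 of 39 (54.0% of all genes), made up of 3 ligand and 12 receptor genes. The ligand genes with no signal above background at a probe set of their own were Cd40lg and Cd70, which lymphocytes make on activation, Tnfsf4 (OX40 ligand), Tnfsf8 (CD30 ligand), Tnfsf11 (RANK ligand) and Tnfsf13b (the B cell survival factor BAFF). The receptor genes were Cd27, Eda2r, Tnfrsf8 (CD30), Tnfrsf10b (the mouse TRAIL receptor), Tnfrsf11b (the decoy receptor osteoprotegerin), Tnfrsf14 (HVEM), Tnfrsf17 (BCMA), Tnfrsf19, Tnfrsf22, Tnfrsf23 and Tnfrsf25. Tnfsf13os was at background too. A probe set that the annotation lists for both Tnfrsf22 and Tnfrsf23 was above background in both cDC subsets, so 1 or both of these genes may have been read there. A probe set at background does not show that its gene was silent: 17 of the 39 genes had more than 1 probe set, and in 6 of these, 1 probe set was above background while the others were at background on all arrays.

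**Figure D1:**
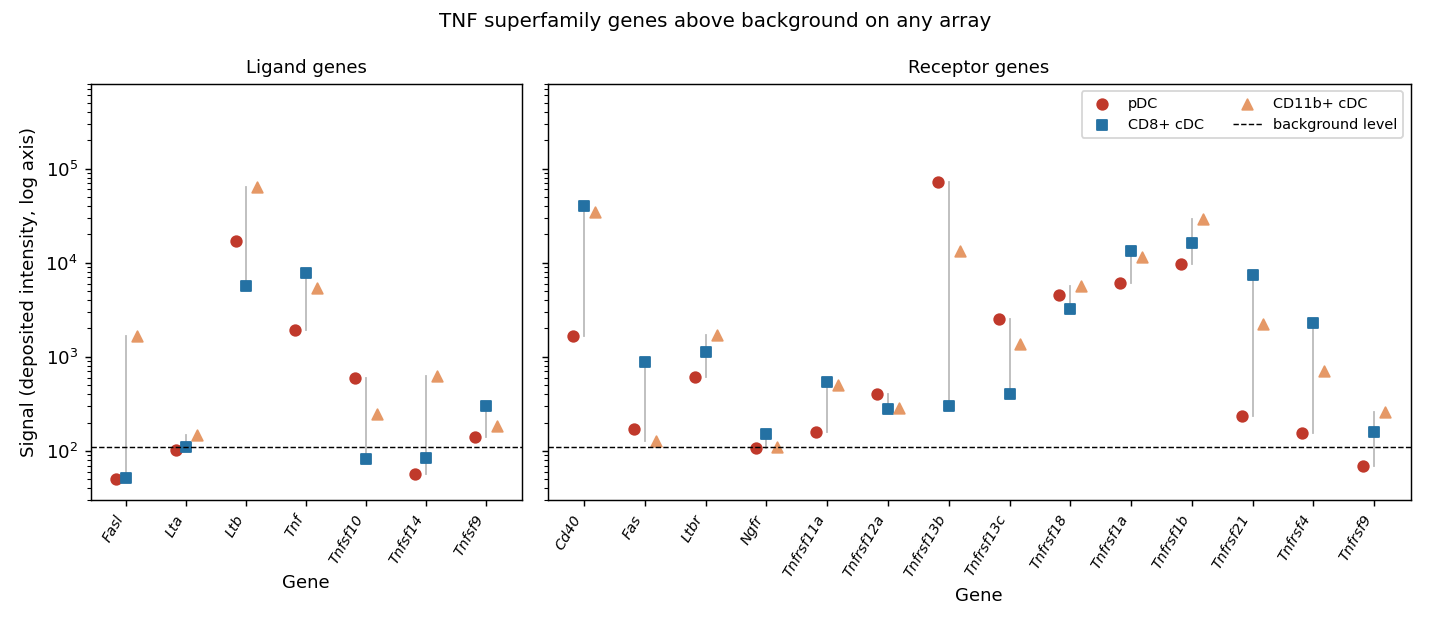
Signal (deposited intensity, log axis) of the 7 ligand genes and 14 receptor genes above background on any array, with 1 point per array for pDC, CD8+ cDC and CD11b+ cDC. Grey lines span the 3 arrays and the dashed line is the background level of 111. Tnfrsf13b spans the widest range, from 304 in CD8+ cDC to 71253 in pDC, while Tnfrsf18 stays between 3236 and 5647.

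Among the 7 measured ligand genes, Tnfsf10 was brightest in pDC, and Tnf and Tnfsf9 in CD8+ cDC. Fasl, Lta, Ltb and Tnfsf14 were brightest in CD11b+ cDC. Lta, Tnf and Tnfsf9 led the next array by under 2-fold. With spike-in scaling, Tnf and Tnfsf9 were brightest in CD11b+ cDC instead. That scaling moved the median over all genes to -0.95 for CD8+ minus CD11b+ cDC. Ltb encodes lymphotoxin beta, the membrane partner of lymphotoxin alpha. It gave a signal of 16873 in pDC, 5693 in CD8+ cDC and 63363 in CD11b+ cDC. All 3 arrays were far above background, and the CD11b+ array was the highest. Ltb was 2.96-fold higher in pDC than in CD8+ cDC, 3.76-fold lower in pDC than in CD11b+ cDC, and 11.1-fold lower in CD8+ than in CD11b+ cDC. Lta, its partner gene, stayed close to background at 102 in pDC, 111.3 in CD8+ cDC and 148 in CD11b+ cDC, and passed 2-fold in no pair.

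Tnf, the inflammatory cytokine gene, followed another order. Its signal was 1905 in pDC, 7732 in CD8+ cDC and 5386 in CD11b+ cDC. The pDC array was the lowest, 4.06-fold below CD8+ cDC and 2.83-fold below CD11b+ cDC, and the cDC subsets differed by under 2-fold.

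Ltb, Tnf and Lta lie side by side in the mouse genome with no other protein-coding gene between them. The patterns of Ltb and Tnf across the subsets differed, while Lta was too close to background to give one. The 250 bases before the start of Ltb and of Tnf, the measured neighbours with unlike patterns, and of Tnfrsf13b, the gene with the widest range, are shown with matches of the NF-kappaB consensus, searched on both strands, in capitals. Sequences are from RefSeq on mouse build GRCm38.p6, printed 5′ to 3′ on the strand of the gene: Ltb is chr17:35194257-35194506 (plus strand), Tnf is chr17:35202008-35202257 (minus strand) and Tnfrsf13b is chr11:61126505-61126754 (plus strand).
Ltb: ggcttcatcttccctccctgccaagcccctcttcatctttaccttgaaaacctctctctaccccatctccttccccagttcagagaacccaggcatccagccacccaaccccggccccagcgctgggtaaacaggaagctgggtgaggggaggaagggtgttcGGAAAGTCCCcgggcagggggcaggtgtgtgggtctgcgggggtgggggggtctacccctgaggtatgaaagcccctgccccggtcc
Tnf: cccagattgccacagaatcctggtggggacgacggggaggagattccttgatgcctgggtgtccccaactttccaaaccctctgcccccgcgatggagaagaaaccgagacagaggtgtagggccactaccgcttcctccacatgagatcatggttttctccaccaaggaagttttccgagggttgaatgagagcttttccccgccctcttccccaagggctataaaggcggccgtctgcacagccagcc
Tnfrsf13b: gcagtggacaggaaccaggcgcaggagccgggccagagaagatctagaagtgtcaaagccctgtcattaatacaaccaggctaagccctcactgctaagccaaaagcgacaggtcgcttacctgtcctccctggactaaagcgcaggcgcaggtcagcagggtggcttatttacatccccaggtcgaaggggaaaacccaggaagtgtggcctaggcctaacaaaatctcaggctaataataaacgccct
The Ltb window held 1 match, on the minus strand from -87 to -78 counted from the start. The Tnf and Tnfrsf13b windows held 0, which says only that these letters are not in them. The consensus was present in 7.25% of 32851 promoter windows of this length and in 4 of the 34 windows of the family, those of Ltb, Tnfrsf8, Tnfrsf9 and Tnfrsf25. A looser form of the NF-kappaB motif was searched first and then replaced by the consensus. It was present in 17.6% of all windows and in 9 of the 34, those of Ltb and Tnfrsf13b included and that of Tnf not, so the absence of a match at Tnfrsf13b depends on the form searched. A motif of interferon response elements, also searched first and not marked here, was present in 2.98% of all windows and in 4 of the 34, none of them among the 3 shown. The 34 windows belong to the 30 of 39 genes found in the sequence table. GAGGAAGT, a sequence bound by PU.1 and Spi-B, was present on either strand in 2.44% of all windows and in 0 of the 34. Neither the consensus nor GAGGAAGT contains the other, and a match is not evidence of binding.

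Tnfsf10, encoding the death ligand TRAIL, was the 1 ligand gene brightest in pDC. It gave 600.2 in pDC, lay at background in CD8+ cDC and gave 249 in CD11b+ cDC. It was at least 5.40-fold higher in pDC than in CD8+ cDC and 2.41-fold higher than in CD11b+ cDC, and at least 2.24-fold lower in CD8+ than in CD11b+ cDC. The other probe sets of Tnfsf10 were at background on all arrays, and averaging them with it ended all 3 calls (0.81, 0.42 and -0.39 log2). With arrays scaled on the spike-ins the difference between pDC and CD11b+ cDC was 0.92 (log2), under 2-fold.

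Fasl, encoding the death ligand of Fas, and Tnfsf14, encoding the T cell costimulator LIGHT, were above background in CD11b+ cDC only, and they were the 2 genes of the family 4-fold or more brighter there than in both other subsets (2.03% of all genes). Fasl gave 1669 there and was at least 15.0-fold lower in both pDC and CD8+ cDC. Tnfsf14 gave 627 and was at least 5.64-fold lower in both. These folds rest on 1 probe set each, and averaging the probe sets of a gene gave -2.07 (log2) for Fasl and -1.25 for Tnfsf14 in both pairs: the second of Fasl read 130.4 in CD11b+ cDC and background elsewhere, and the second of Tnfsf14 was at background on all arrays. The probe sets of Cd70 and Tnfsf9, next to Tnfsf14 in the genome, did not share its pattern.

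Fasl is a known gene of cytotoxic lymphocytes, whose markers were measured on the same arrays. Ncr1, Prf1 and Eomes of NK cells and Cd3d, Cd3e and Cd3g of T cells were at background on all 3 arrays. Of the other T cell markers, Cd5 gave 344 in pDC, 433 in CD8+ cDC and 2832 in CD11b+ cDC, brightest where Fasl was. Cd28 was above background in pDC alone (4830), and Cd247 (137 to 139) and Lat (188 to 444) were above it on all arrays. The 7 T cell markers summed to 5920 in pDC, 1070 in CD8+ cDC and 3380 in CD11b+ cDC. Klrk1, the other NK marker matched, gave 126 in pDC, 793 in CD8+ cDC and 307 in CD11b+ cDC. The 6 matched neutrophil genes summed to 2540 in pDC, 1250 in CD8+ cDC and 16500 in CD11b+ cDC, with 6, 5 and 6 of them above background. The 6 matched genes of red pulp macrophages and monocytes summed to 35800, 90600 and 203000 in the same order, all 6 being above background on all 3 arrays. In that sum Adgre1 (70516) and Csf1r (64906) were brightest in CD11b+ cDC, as was Cd5l, while Spic, Vcam1 and Hmox1 were brighter in CD8+ than in CD11b+ cDC on the deposited scale. The part of these markers in the CD11b+ signals of Fasl, Tnfsf14 and Ltb was not tested.

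Tnfsf9, encoding the 4-1BB ligand, was dim, with 140 in pDC, 298 in CD8+ cDC and 183 in CD11b+ cDC. It was 2.13-fold lower in pDC than in CD8+ cDC, a call that ended with spike-in scaling (-0.43 log2).

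The 14 measured receptor genes comprised several patterns, and 12 of them were above background on all arrays. There were 5 genes of the family that were 2-fold or more lower in pDC than in both cDC subsets, namely Tnf and the receptor genes Cd40, Tnfrsf21, Tnfrsf4 and Tnfrsf11a (5 of 21 measured, against 8.56% of all genes). All 5 were above background on all 3 arrays.

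Cd40 gave 1680 in pDC, 40479.7 in CD8+ cDC and 34751 in CD11b+ cDC. The cDC arrays stood together and far above the pDC array: Cd40 was 24.1-fold lower in pDC than in CD8+ cDC, 20.7-fold lower than in CD11b+ cDC, and under 2-fold apart between the cDC subsets. It had 3 probe sets above background on every array, the most of any gene of the family. The other 2 gave 22.2-fold and 17.7-fold lower in pDC against CD8+ cDC, and 19.0-fold and 16.2-fold against CD11b+ cDC.

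Tnfrsf21 encodes death receptor 6. Its signal was 237 in pDC, 7430 in CD8+ cDC and 2209 in CD11b+ cDC, a graded order. It was 31.4-fold lower in pDC than in CD8+ cDC and 9.33-fold lower than in CD11b+ cDC. Between the cDC subsets it was 3.36-fold higher in CD8+ than in CD11b+ cDC. Its second probe set read 128, 862 and 254 and gave the same order with smaller folds against pDC, 6.75-fold and 1.99-fold, and 3.39-fold between the cDC subsets.

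Tnfrsf4, encoding the T cell costimulatory receptor OX40, had the same order at 156 in pDC, 2290.0 in CD8+ cDC and 702 in CD11b+ cDC. It was 14.7-fold lower in pDC than in CD8+ cDC and 4.52-fold lower than in CD11b+ cDC. Between the cDC subsets it was 3.26-fold higher in CD8+ than in CD11b+ cDC. The 2-fold calls of Tnfrsf4 and Tnfrsf21 between the cDC subsets ended with spike-in scaling, at 0.71 and 0.76 (log2), with the direction kept. Tnfrsf18, encoding GITR and lying next to Tnfrsf4 in the genome, gave 4512 in pDC, 3236 in CD8+ cDC and 5647 in CD11b+ cDC and passed 2-fold in no pair. With spike-in scaling its differences were 1.12 (log2) for pDC minus CD8+ cDC and -1.80 between the cDC subsets.

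Tnfrsf11a, encoding RANK, a DC survival receptor, gave 157 in pDC, 544 in CD8+ cDC and 497 in CD11b+ cDC. It was 3.46-fold lower in pDC than in CD8+ cDC and 3.16-fold lower than in CD11b+ cDC. Its second probe set was above background in CD11b+ cDC alone, at 144, and averaging both ended the call against CD8+ cDC (-0.90 log2). Tnfrsf9, encoding the costimulatory receptor 4-1BB, lay at background in pDC and gave 159 in CD8+ cDC and 259 in CD11b+ cDC, at least 2.33-fold lower in pDC than in CD11b+ cDC. That call ended when its 3 probe sets were averaged (-0.41 log2).

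Fas, the death receptor, was the 1 gene of the family that was 4-fold or more brighter in CD8+ cDC than in both other subsets (2.44% of all genes). It gave 170.1 in pDC, 889 in CD8+ cDC and 126 in CD11b+ cDC. The pDC and CD11b+ arrays were both little above background, so Fas was 5.22-fold lower in pDC than in CD8+ cDC and 7.05-fold higher in CD8+ than in CD11b+ cDC. Fas and Fasl were thus brightest on different arrays, Fas in CD8+ cDC and Fasl in CD11b+ cDC.

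The receptors of BAFF and APRIL, known from B cells, ran the other way. Tnfrsf13b encodes TACI, which binds both ligands, and gave 71253 in pDC, 304 in CD8+ cDC and 13437 in CD11b+ cDC. The pDC array was the highest and the CD8+ array was not far above background. Tnfrsf13b was 235-fold higher in pDC than in CD8+ cDC, 5.30-fold higher in pDC than in CD11b+ cDC and 44.3-fold lower in CD8+ than in CD11b+ cDC. It was the 1 gene of the family that was 4-fold or more brighter in pDC than in both other subsets (4.28% of all genes), and it had 1 probe set. At 2-fold or more over both cDC subsets, Tnfsf10 joined it, making 2 of 21 measured genes (10.4% of all genes).

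Tnfrsf13c, encoding the BAFF receptor, kept the same order at 2543.5 in pDC, 402 in CD8+ cDC and 1372 in CD11b+ cDC. It was 6.32-fold higher in pDC than in CD8+ cDC and 3.41-fold lower in CD8+ than in CD11b+ cDC, with 1.85-fold between pDC and CD11b+ cDC. Their relative Tnfrsf17 was at background on all arrays. B cell markers were measured beside these genes: of 6 matched, Cd79a, Pax5 and Fcer2a were at background on all 3 arrays, and 2 were above it in pDC, 2 in CD8+ cDC and 3 in CD11b+ cDC. Cd79b gave 10103, 381 and 4026 in this order of arrays, and Ms4a1 gave 223, 19147 and 11047. Cr2 was above background in CD11b+ cDC alone (509). The 6 summed to 10600 in pDC, 19800 in CD8+ cDC and 15800 in CD11b+ cDC. Most of that sum came from Cd79b in pDC and from Ms4a1 in the cDC subsets, so its order is that of few genes. Cd79b ran in the order of Tnfrsf13b and Tnfrsf13c, and Ms4a1 and Cr2 did not. Plasma cell markers were measured too: all 4 were above background in pDC, 2 in CD8+ cDC and 3 in CD11b+ cDC. They summed to 180000 in pDC, 49100 in CD8+ cDC and 57100 in CD11b+ cDC. Of these, Mzb1 gave 47739 in pDC, background in CD8+ cDC and 249 in CD11b+ cDC, Sdc1 gave 3355 in pDC and background in the others, Xbp1 was brightest in pDC (120877) and Jchain in CD11b+ cDC (14060.2). The part of B cell and plasma cell RNA in the Tnfrsf13b and Tnfrsf13c signals was not tested.

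The receptors of TNF itself were above background in every subset. Tnfrsf1a, encoding the death domain receptor TNFR1, gave 6084 in pDC, 13394 in CD8+ cDC and 11542.5 in CD11b+ cDC. It was 2.20-fold lower in pDC than in CD8+ cDC, and with spike-in scaling it was -0.50 (log2) in that pair and -1.28 against CD11b+ cDC. Tnfrsf1b, encoding TNFR2, gave 9616 in pDC, 16234 in CD8+ cDC and 29398 in CD11b+ cDC, 3.06-fold lower in pDC than in CD11b+ cDC. Its second probe set was at background, and the average of both gave -0.81 (log2). Ltbr, the lymphotoxin beta receptor gene, ran in the same order at 611.5, 1115 and 1699 and was 2.78-fold lower in pDC than in CD11b+ cDC. Ltb and Ltbr were thus both brightest in CD11b+ cDC.

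On the deposited scale, under 2-fold across all 3 arrays were Lta, Ngfr, Tnfrsf12a and Tnfrsf18 (4 of 21 measured, against 58.7% of all genes). Tnfrsf12a, encoding the TWEAK receptor Fn14, gave 399.5 in pDC, 281 in CD8+ cDC and 289 in CD11b+ cDC from a probe set marked by its name as able to cross-hybridise, while its second probe set was at background. With spike-in scaling Tnfrsf12a passed 2-fold for pDC minus CD8+ cDC (1.15 log2) and between the cDC subsets (-1.04). Ngfr, the p75 neurotrophin receptor gene, gave 152 in CD8+ cDC and background in the others.

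**Figure D2:**
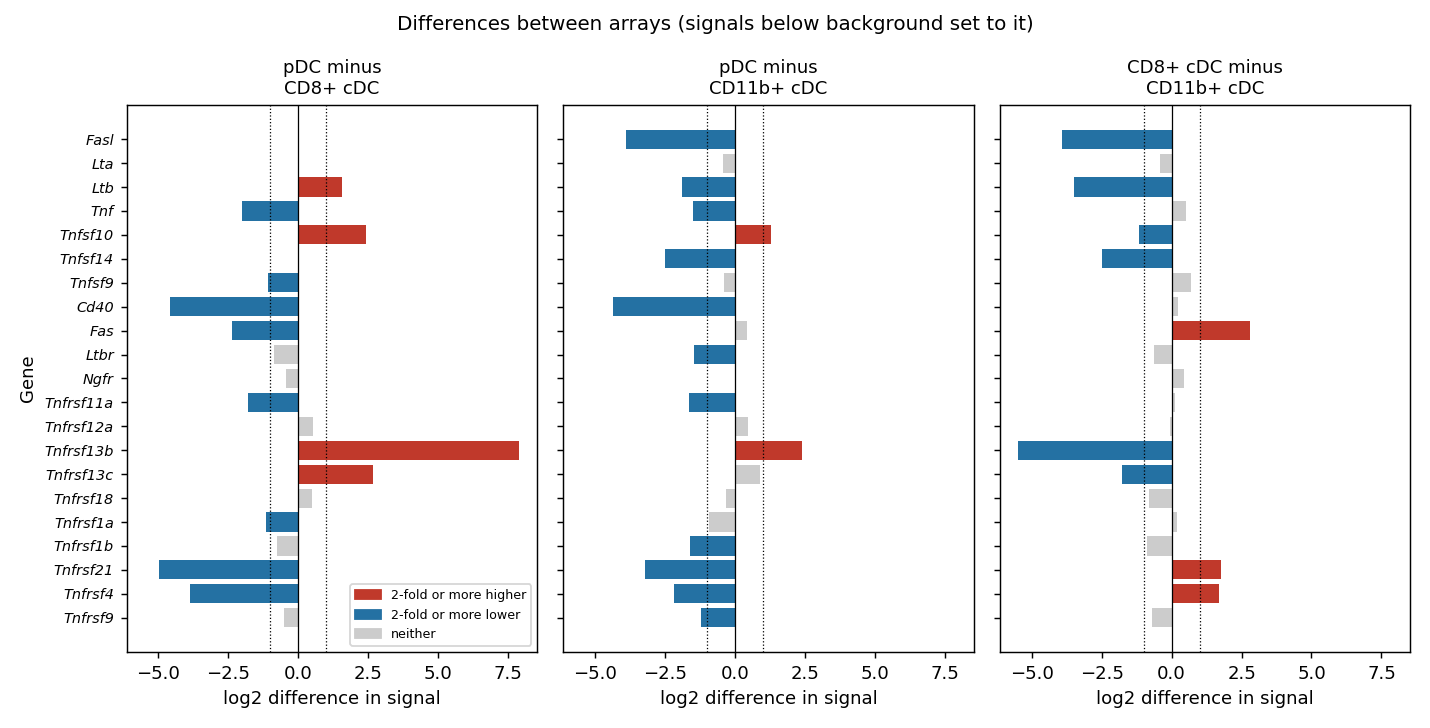
Log2 difference in signal for each of the 21 genes, ligands above and receptors below, in the pairs pDC minus CD8+ cDC, pDC minus CD11b+ cDC and CD8+ minus CD11b+ cDC. Colours mark differences of 2-fold or more and dotted lines mark 2-fold. Cd40, Tnfrsf21 and Tnfrsf4 extend left in both pDC pairs, and Tnfrsf13b extends right in both and left between the cDC subsets.

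Taking the family by pairs of subsets, pDC and CD8+ cDC differed by 2-fold or more at 12 of the 19 genes measured in the pair. Of these, 4 were higher in pDC (Ltb, Tnfrsf13b, Tnfrsf13c and Tnfsf10; 16.0% of all genes were higher) and 8 were lower (Cd40, Fas, Tnf, Tnfrsf11a, Tnfrsf1a, Tnfrsf21, Tnfrsf4 and Tnfsf9; 14.8% of all genes were lower). The median log2 difference was -0.76, against 0.00 over all genes. With spike-in scaling 6 were higher (33.7% of all genes) and 6 lower (9.73% of all genes), the median being -0.33 against 0.65 over all genes. In that scaling pDC held 77.6% of all genes called in the pair, against 51.9% as deposited.

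Between pDC and CD11b+ cDC, 13 of 20 genes passed 2-fold. Only Tnfrsf13b and Tnfsf10 were higher in pDC (15.0% of all genes were higher), and 11 were lower (14.3% of all genes were lower), 8 of them with both arrays above background. The 11 were Cd40, Fasl, Ltb, Ltbr, Tnf, Tnfrsf11a, Tnfrsf1b, Tnfrsf21, Tnfrsf4, Tnfrsf9 and Tnfsf14. The median was -1.35, against 0.01 over all genes. With spike-in scaling 1 was higher (10.7% of all genes) and 12 lower (19.9% of all genes), the median being -1.55 against -0.30, and pDC held 34.8% of all genes called, against 51.2% as deposited. Both comparisons share the pDC array, so their values are not independent of each other.

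Between the cDC subsets, 9 of 21 genes passed 2-fold. Higher in CD8+ cDC were Fas, Tnfrsf21 and Tnfrsf4 (9.86% of all genes were higher), all receptor genes. Lower were Fasl, Ltb, Tnfsf10, Tnfsf14, Tnfrsf13b and Tnfrsf13c (10.3% of all genes were lower), of which 3 had both arrays above background. The median was -0.41 over all 21, 0.04 over the 14 receptor genes and -1.16 over the 7 ligand genes, against 0.01 over all genes. Of the 7 ligand genes, Fasl, Tnfsf10 and Tnfsf14 were at background in CD8+ cDC, so their values are bounds. The ligand median was the value of Tnfsf10, which became -0.39 with its probe sets averaged. These medians therefore do not establish a contrast between ligands and receptors. This pair depended most on the scaling. With arrays scaled on the spike-ins 1 gene was higher (3.88% of all genes) and 11 were lower (45.4% of all genes), the median was -1.10 against -0.95 over all genes, and CD8+ cDC held 7.87% of all genes called, against 49.0% as deposited. A gene at background on 1 array of a pair was counted only through the array where it exceeded background. Fasl, Lta, Tnfsf14 and Tnfrsf9 entered the pair of pDC and CD11b+ cDC in this way. Between the cDC subsets, Fasl, Tnfsf10, Tnfsf14 and Ngfr did so. These shares therefore describe the measured genes and not the whole family.

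**Figure D3:**
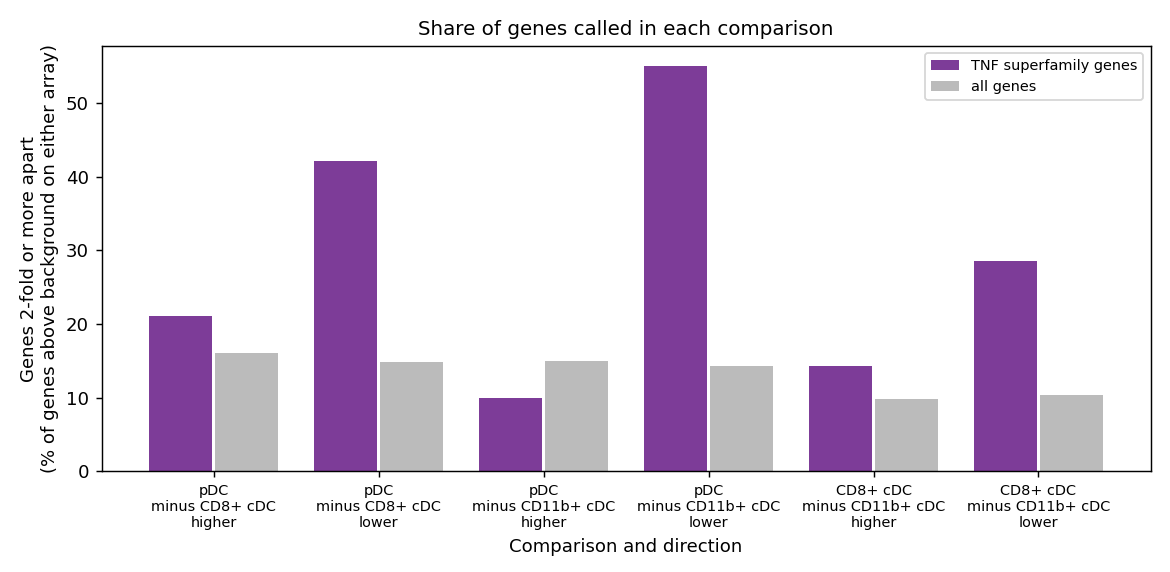
Share of genes 2-fold or more apart, in percent of genes with signal above background on 1 or both arrays, for the TNF superfamily (purple) and all genes (grey), by pair and direction. The family's lower share stands at 42.1% for pDC minus CD8+ cDC and 55.0% for pDC minus CD11b+ cDC, against 14.8% and 14.3% of all genes.

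Ligands and receptors that bind each other were set side by side within the subsets. Tnf and both of its receptor genes were above background on all 3 arrays, as were Ltb and Ltbr. Cd40, Tnfrsf4 and Tnfrsf11a had signal in every subset while the genes of their ligands, Cd40lg, Tnfsf4 and Tnfsf11, were at background. In pDC, Tnfrsf4 and Tnfrsf11a were only little above background. Tnfrsf13b and Tnfrsf13c also had signal in every subset, with their shared ligand gene Tnfsf13b at background. Tnfsf13, the gene of the other ligand of TACI, had no probe set of its own. A probe set listed for Tnfsf12, Tnfsf13 and their joint transcript was above background on all 3 arrays. Signal on the ligand side was seen for Tnfsf10, with signal in pDC and CD11b+ cDC and its receptor genes Tnfrsf10b and Tnfrsf11b at background. The single-gene probe sets of its decoy receptor genes Tnfrsf22 and Tnfrsf23 were at background as well, but their shared probe set was above it in both cDC subsets. Tnfsf14 had signal in CD11b+ cDC, where its receptor gene Ltbr had signal and Tnfrsf14 was at background. Cd70 and Cd27, and Tnfsf8 and Tnfrsf8, were at background on both sides. Tnfsf12, Tnfsf13, Tnfsf15 and Tnfsf18 had no probe set of their own in the annotation used and were not analysed here.

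Of 35 genes of TNF receptor signalling that are no members of the family, 31 were matched, and most did not pass 2-fold. Traf3, Ripk1, Chuk and Nfkb1 were not matched. Higher in pDC than in CD8+ cDC was 1 of 31 (16.0% of all genes), and lower were 6 of 31 (14.8% of all genes), with a median of -0.16 against 0.00 over all genes. Traf1, an adaptor bound to TNFR2 and CD40, gave 4137 in pDC, 55838.5 in CD8+ cDC and 55899 in CD11b+ cDC and was 13.5-fold lower in pDC than in either cDC subset. Relb, the NF-kappaB subunit of the alternative pathway, gave 4535 in pDC, 29237.5 in CD8+ cDC and 88805 in CD11b+ cDC. It was 6.45-fold lower in pDC than in CD8+ cDC, 19.6-fold lower in pDC than in CD11b+ cDC and 3.04-fold lower in CD8+ than in CD11b+ cDC. Map3k14, the kinase NIK upstream of RelB, was 5.20-fold lower in pDC than in CD8+ cDC and 5.78-fold lower than in CD11b+ cDC. Averaging its probe sets gave -1.38 and -1.72 (log2). Its second brightest probe set alone gave -0.39 and -0.91, under 2-fold in both pairs. Tank and Traf5 were 2.64-fold and 2.58-fold lower in pDC than in CD8+ cDC, and Traf4 was at least 2.57-fold higher in pDC. In this pair Traf5 gave -0.73 (log2) with its probe sets averaged and also with spike-in scaling, both under 2-fold. Tank gave -0.76 (log2) with spike-in scaling.

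Between pDC and CD11b+ cDC, 1 of 31 was higher (15.0% of all genes) and 8 of 31 were lower (14.3% of all genes), with a median of -0.42 against 0.01 over all genes. Rel, the c-Rel subunit gene, was 5.06-fold, Tank 3.90-fold and Nfkb2, the precursor partner of RelB, 3.07-fold lower in pDC. Between the cDC subsets 0 of 30 were higher in CD8+ cDC (9.86% of all genes) and 2 of 30 were lower (10.3% of all genes), Relb and Rel (2.09-fold). The death and ubiquitin arm genes Fadd, Casp8, Cflar, Tradd, Birc2, Birc3, Sharpin, Rbck1 and Rnf31 stayed under 2-fold in all pairs as deposited. Ripk1 was not matched, and the adaptor gene Traf2 was among the 8 lower in pDC than in CD11b+ cDC. With spike-in scaling 18 of 30 were lower in CD8+ than in CD11b+ cDC (45.4% of all genes), with a median of -1.15 against -0.95 over all genes. The Traf4 calls, and that of Traf5 against CD8+ cDC, were lost when the probe sets of a gene were averaged.

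**Figure D4:**
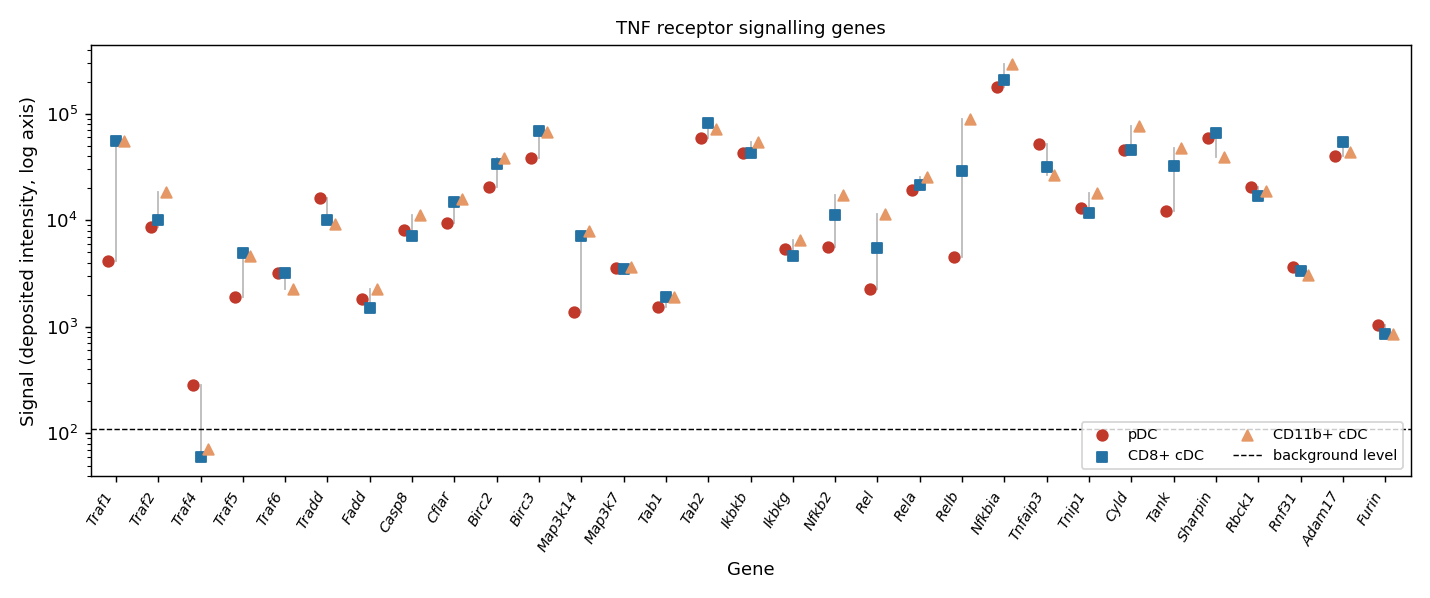
Signal (deposited intensity, log axis) of the 31 matched TNF receptor signalling genes, with 1 point per array for pDC, CD8+ cDC and CD11b+ cDC. The dashed line is the background level of 111. Traf1, Map3k14 and Relb are lowest in pDC, while Fadd, Casp8, Map3k7 and Rnf31 differ by under 2-fold on the deposited scale.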

How the data were processed

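RNA of each of 3 splenic DC subsets was read on 1 array. The deposited values are linear intensities, 1 per probe set, made with MAS5 per the submitters' processing notes, with no version given. Their near-equal distributions point to a further scaling that no source used here describes. The level below which signals were raised was the 95th percentile of 87 chemosensory receptor probe sets on the array where it was highest (111). Log2 was then taken, and each gene was read at its brightest probe set with 1 gene in the platform annotation. All 39 genes matched the GRCm38.p6 gene table by number and symbol. That table served for names and neighbours only. No test was run, as the number of arrays limits the precision. Members, lists and rules were chosen with earlier results of these data known. Every measured member is given with its signals, and of the signalling list up to 6 genes per pair with the largest differences. Alternatives were the 90th and 99th percentiles, spike-in scaling (18 probe sets), quantile normalization, the mean of all probe sets, the second brightest probe set, and 3-fold. Python 3.11.15, numpy 2.4.6 and pandas 2.3.3 were used.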

Additional observations from a re-analysis of the deposited data

Results flagged for a closer look

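The annotation lists several genes for 3 probe sets of the family, which were left out of the comparisons, and 2 of them carried signal above the background level. A probe set listed for both Tnfrsf22 and Tnfrsf23, genes of decoy TRAIL receptors in the mouse, lay at background in pDC and gave 1919.7 in CD8+ cDC and 569.3 in CD11b+ cDC, while the probe sets of each gene alone were at background on all arrays. A probe set listed for Tnfsf12, Tnfsf13 and their joint transcript Tnfsfm13 gave 210.9 in pDC, 849.2 in CD8+ cDC and 792.9 in CD11b+ cDC. Which of the listed genes these probe sets read is not settled by the files.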

How the results depend on the processing

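Counts of the family were within 1.5 times the reported ones with the 90th percentile (background 90.9) and with quantile normalization, in every pair. With the 99th percentile (background 412), calls of Tnfrsf11a, Tnfrsf4, Tnfrsf9, Tnfsf9, Tnfsf10 and Tnfsf14 ended in at least 1 pair. There, 1 gene was higher and 7 lower in pDC against CD11b+ cDC, and 0 were specific to CD8+ cDC and 1 to CD11b+ cDC. With spike-in scaling, 1 was higher in pDC than in CD11b+ cDC, and 1 was higher and 11 lower in CD8+ than in CD11b+ cDC, with 0 specific to CD8+ cDC. With the mean of all probe sets, 1 was higher in pDC than in CD11b+ cDC and 1 was specific to CD11b+ cDC. The second brightest probe set exists for 17 genes and gave 0 higher and 2 lower in pDC against CD8+ cDC, 0 and 1 against CD11b+ cDC, 1 and 0 between the cDC subsets, and 0 specific genes in each subset; fewer genes could be counted. At 3-fold, 1 was higher in pDC than in CD11b+ cDC, and at 8-fold 0, 0 and 1 were specific to pDC, CD8+ and CD11b+ cDC. Alternatives for the signalling list were added after the data were seen. Of it, the 1 gene higher in pDC became 0 in both pairs with the 99th percentile, the mean, the second probe set and 3-fold, and 3 against CD8+ cDC with spike-in scaling. Its lower counts became 3 with spike-in scaling and 3 at 3-fold against CD8+ cDC, 13 with spike-in scaling against CD11b+ cDC, and 18 with spike-in scaling, 1 with the second probe set and 1 at 3-fold between the cDC subsets. Apart from what the scaling and the smaller number of probe sets do by construction, the cause was not tested. Of 480 single-gene values under the alternatives, 0 reversed a call, 420 moved by less than the SD between probe sets of a gene (0.91, 0.86 and 0.75 log2 in the 3 pairs) and 60 by more. Part of the 420 was fixed in advance. The 3-fold setting leaves every value unchanged (74 of the 420), and a gene with 1 probe set cannot move with the mean. Genes at background on 1 array of a pair have only bounds. No paired analysis was possible because each subset has 1 array.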
